A study of Mus musculus with 10 samples.

Results

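The 9 genes described here belong to retinoic acid signalling and were followed across a mouse progenitor cell differentiation series, namely the receptors Rara, Rarb, Rarg and Rxra, the retinoid enzymes Cyp26a1, Cyp26b1 and Dhrs3, the uptake receptor Stra6 and the target gene Tgm2. They were chosen by name, as every non-control probe whose RefSeq accession maps to these symbols, and make 9 of the 20660 gene symbols named on the array, read by 13 probes. The cells were EML-C1, a factor-dependent line from mouse bone marrow that grows as multipotent blood progenitors and was made with a retroviral dominant-negative retinoic acid receptor alpha. That construct limits the line as a model for this pathway, since the receptor studied here is also the one that was altered, and whether the Rara probes read the vector's transcript was not tested. Expression was read on 10 Agilent arrays with a single dye, 1 per condition.

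Only some cultures received retinoic acid. The IL-3/GM-CSF cultures had 10 µM all-trans retinoic acid and 10 ng/ml IL-3 from day 0, with 10 ng/ml GM-CSF added after day 3, and the combined cultures had the same factors together with 10 ng/ml EPO. The EPO cultures had 10 ng/ml EPO and no added retinoic acid. All cultures were kept in horse serum with BHK/MKL conditioned medium. Cells of each treatment were sorted at day 3 into Sca1-low and Sca1-high fractions (Sca1 is a progenitor surface antigen) and read again at day 6 with no fraction label, and untreated cells at day 0 served as control. Retinoic acid and IL-3 always came together, as did GM-CSF after day 3, so their effects cannot be told apart in any comparison below.

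Retinoic acid enters the nucleus and binds heterodimers of a retinoic acid receptor (Rara, Rarb or Rarg) and a retinoid X receptor such as Rxra, which sit on paired copies of a short DNA motif and switch from repression to activation when the ligand binds. Several genes of the pathway are themselves targets and feed back on the signal. The Cyp26 enzymes oxidise retinoic acid, Dhrs3 returns retinaldehyde to retinol, and Rarb is a receptor induced by its own ligand. In bone marrow, retinoic acid acting through Rara is best known for promoting granulocyte maturation.

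The promoters of 8 of the 9 genes were available as windows of 250 bases before to 50 bases after an annotated start (18 windows from RefSeq, build GRCm38.p6, with Tgm2 not among them). They were searched on both strands for direct repeats of the receptor motif, 2 copies of AGGTCA, of AGTTCA, of GGGTCA or of GGTTCA in the same orientation with 1, 2 or 5 bases between them (DR1, DR2 and DR5). Any 2 of the 4 forms were accepted as a pair, and overlaps between motifs were allowed. A match was found in 2 windows, both DR5, and they are shown because the genes they belong to are textbook retinoic acid targets. Dhrs3, the gene of the set with the lowest adjusted p between the sorted fractions, is shown beside them and had no match in its 3 windows. Each sequence runs 5′ to 3′ on the gene's strand, and capitals mark the direct repeat.

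Rarb promoter, chr14:16575427-16575726, minus strand: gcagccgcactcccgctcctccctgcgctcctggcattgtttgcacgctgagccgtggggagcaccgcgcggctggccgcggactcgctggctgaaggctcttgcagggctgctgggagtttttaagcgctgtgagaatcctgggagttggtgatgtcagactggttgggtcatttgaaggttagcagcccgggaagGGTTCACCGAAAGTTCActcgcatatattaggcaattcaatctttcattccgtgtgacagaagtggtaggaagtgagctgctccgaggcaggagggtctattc

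Cyp26a1 promoter, chr19:37697558-37697857, plus strand: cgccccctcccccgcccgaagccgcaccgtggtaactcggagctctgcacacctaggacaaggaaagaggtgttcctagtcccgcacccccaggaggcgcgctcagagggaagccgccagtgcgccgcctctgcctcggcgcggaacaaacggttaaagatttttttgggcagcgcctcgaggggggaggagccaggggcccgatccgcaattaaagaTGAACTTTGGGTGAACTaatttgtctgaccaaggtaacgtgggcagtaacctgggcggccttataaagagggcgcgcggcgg

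Dhrs3 promoter, chr4:144892577-144892876, plus strand: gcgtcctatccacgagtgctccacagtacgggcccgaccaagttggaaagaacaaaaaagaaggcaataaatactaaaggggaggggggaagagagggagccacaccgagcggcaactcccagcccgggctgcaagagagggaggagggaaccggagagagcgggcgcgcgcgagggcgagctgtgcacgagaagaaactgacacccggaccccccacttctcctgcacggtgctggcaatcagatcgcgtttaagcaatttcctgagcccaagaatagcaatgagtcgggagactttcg

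The Rarb repeat began 53 bases before the annotated start (offset -53) and read on the gene's strand. The Cyp26a1 repeat began at offset -32 and read on the opposite strand. A DR5 was present in 0.0974% of all 32851 windows of this length, a DR1 in 0.222% and a DR2 in 0.268%. A match describes these letters only, and windows of 300 bases leave most of each gene's regulatory sequence unread.

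Levels are given as log2 of the processed signal over the 75th percentile of its array, so that 0 is a spot as bright as that percentile. They compare 1 probe between arrays and not 1 gene with another. The 75th percentile lay between 309 and 736 intensity units, with the lowest on the EPO Sca1-low array, and 42.3% to 57.1% of the spots were well above background by the scanner software's own test. Repeated spots of a probe on 1 array had a median SD of 0.09 to 0.14 log2, which is technical error within an array. There was no biological replicate of any condition among the arrays used here. All 8 progenitor markers were well above background in untreated cells, Kit, Cd34 and Ly6a (which encodes Sca1) among them. So were all 8 mast cell markers, 8 of 12 neutrophil markers, and, of those with a value, 7 of 8 erythroid and 4 of 6 monocyte and macrophage markers.

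Of the 9 genes 6 were detected. Rara, Rarg, Rxra, Dhrs3 and the brighter Tgm2 probe were well above background on all 10 arrays and Cyp26b1 on 8. Rarb by both of its probes, Cyp26a1 and Stra6 were well above background on 0 of 10 arrays, the 6 arrays with retinoic acid included. Their signals bound the level from above and give no fold. The brightest Rarb probe read between -7.50 on the combined day 6 array and -4.19 on the IL-3/GM-CSF day 6 array. Cyp26a1 read between -6.79 in untreated cells and -4.52 on the EPO day 6 array, and Stra6 between -7.03 on the combined day 6 array and -5.46 on the EPO day 6 array. The lowest signal counted as well above background varied between arrays from -6.09 to -4.22.

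**Figure D1:**
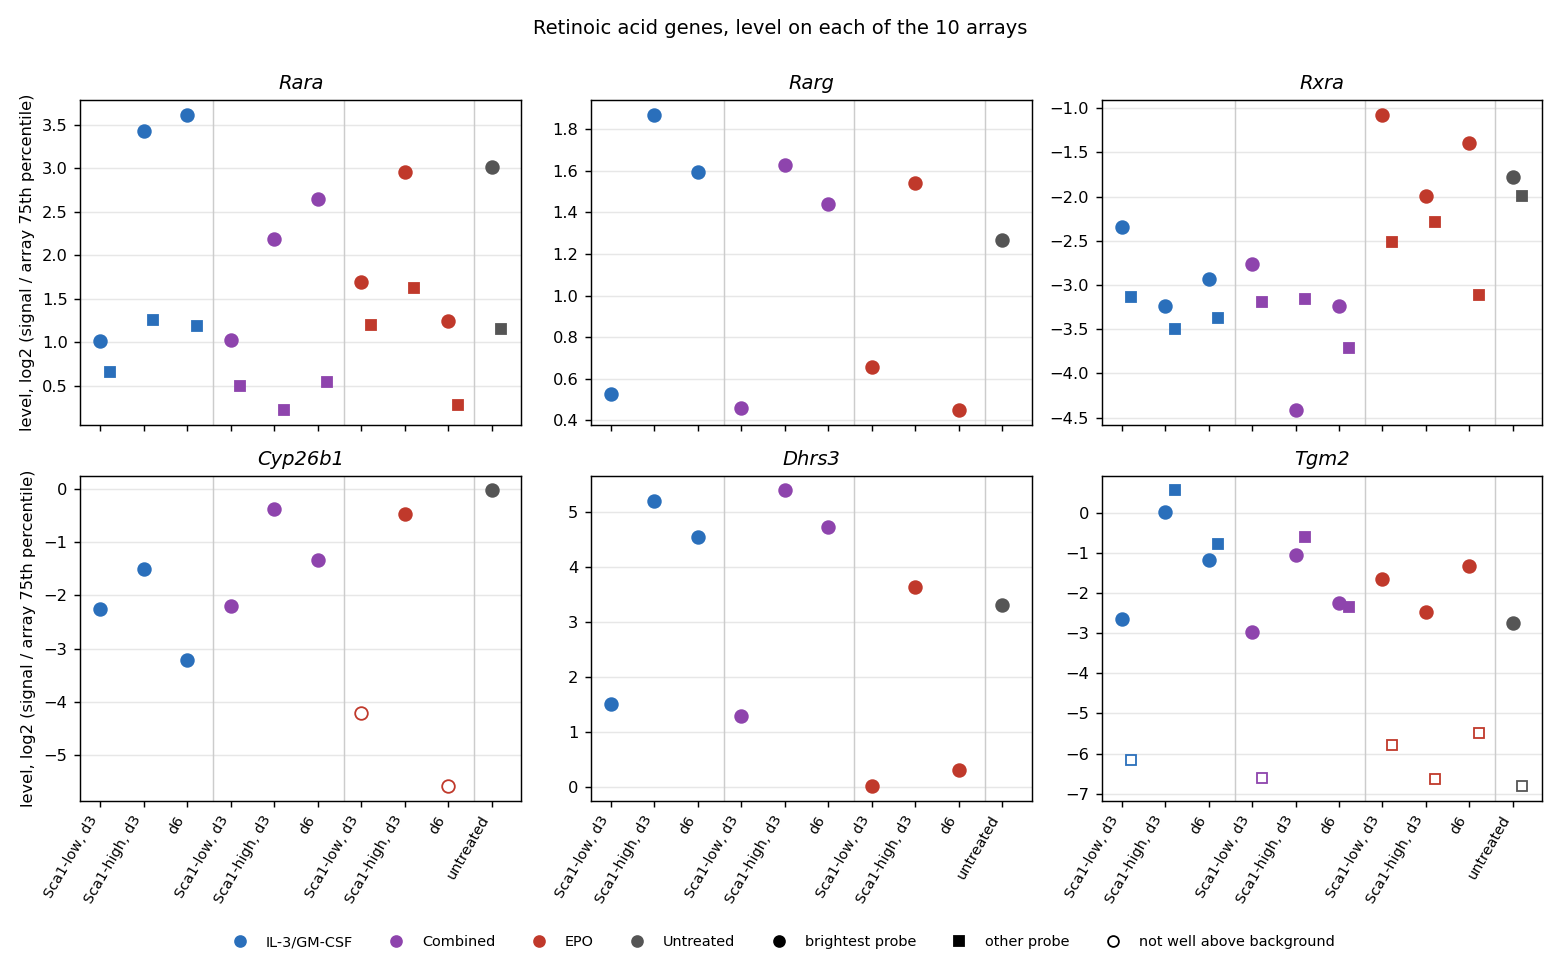
Level of the 6 detected genes on each of the 10 arrays (y axis, log2 of signal over the array's 75th percentile, with a separate scale per gene); the x axis gives fraction and day within the IL-3/GM-CSF, combined and EPO treatments, then untreated cells. Circles are the brightest probe and squares the other probe, and open symbols were not well above background; Dhrs3 spans 0.02 to 5.39 and the other Tgm2 probe is filled on 4 arrays only.

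Rara, the receptor through which retinoic acid acts on granulocytes, read 1.01, 3.43 and 3.61 in IL-3/GM-CSF cells (Sca1-low, Sca1-high and day 6), 1.02, 2.19 and 2.65 in combined cells and 1.69, 2.96 and 1.25 in EPO cells, against 3.01 in untreated cells. The low end held the 3 Sca1-low arrays and EPO day 6. The high end held IL-3/GM-CSF cells, both Sca1-high and day 6. Its other probe read 0.65, 1.25 and 1.18 in IL-3/GM-CSF cells, 0.49, 0.21 and 0.53 in combined cells and 1.19, 1.62 and 0.27 in EPO cells, against 1.15 in untreated cells. The probes put different arrays at the low end and correlated at Pearson r = 0.63 over the 10 arrays.

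Rarg, the receptor with a role in keeping haematopoietic stem cells, read 0.53, 1.87 and 1.59 in IL-3/GM-CSF cells, 0.46, 1.63 and 1.44 in combined cells and 0.66, 1.54 and 0.45 in EPO cells, against 1.27 in untreated cells. The 3 Sca1-low arrays and EPO day 6 were again the lowest, and the remaining 6 arrays lay between 1.27 and 1.87.

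Rxra, the heterodimer partner, read -2.35, -3.24 and -2.94 in IL-3/GM-CSF cells, -2.77, -4.42 and -3.24 in combined cells and -1.08, -1.99 and -1.39 in EPO cells, against -1.77 in untreated cells. Every array with retinoic acid lay below every array without it. How many of all genes separate the arrays in this way was not counted. The other probe gave -3.14, -3.50 and -3.37 in IL-3/GM-CSF cells, -3.19, -3.16 and -3.71 in combined cells and -2.51, -2.29 and -3.11 in EPO cells, against -1.99 in untreated cells. The groups did not overlap on this probe either, though the nearest arrays, IL-3/GM-CSF Sca1-low and EPO at day 6, differed by only 0.03. The probes correlated at r = 0.61.

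Dhrs3, the retinaldehyde reductase, read 1.51, 5.19 and 4.55 in IL-3/GM-CSF cells, 1.29, 5.39 and 4.72 in combined cells and 0.02, 3.64 and 0.31 in EPO cells, against 3.31 in untreated cells. The order over the arrays was IL-3/GM-CSF and combined Sca1-high, then their day 6 cells, then EPO Sca1-high and untreated cells, then the 3 Sca1-low arrays with EPO day 6 among them. IL-3/GM-CSF and combined cells of the same population differed by 0.17 to 0.22 log2 in size, and in Sca1-high cells by 0.56 with quantile normalization.

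Cyp26b1, an enzyme that oxidises retinoic acid, read -2.26, -1.51 and -3.21 in IL-3/GM-CSF cells and -2.19, -0.39 and -1.34 in combined cells. In EPO cells it read -0.47 in the Sca1-high fraction, and it was not well above background in Sca1-low (-4.21) and day 6 cells (-5.57), against -0.03 in untreated cells. Untreated cells had the highest level of the 10 arrays.

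Tgm2, tissue transglutaminase, is a classical retinoic acid-induced gene of myeloid cells. Its brighter probe read -2.65, 0.02 and -1.17 in IL-3/GM-CSF cells, -2.98, -1.05 and -2.26 in combined cells and -1.65, -2.46 and -1.33 in EPO cells, against -2.75 in untreated cells. The other probe was well above background on 4 arrays, at 0.56 in IL-3/GM-CSF Sca1-high, -0.79 in IL-3/GM-CSF day 6, -0.62 in combined Sca1-high and -2.34 in combined day 6 cells. On the other 6 arrays, untreated and all EPO arrays among them, it read between -6.80 and -5.48 and was not well above background. The probes correlated at r = 0.81 and gave different pictures of the EPO arrays, which the brighter probe placed above untreated cells.

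Against untreated cells, each treated array gives a difference of single arrays with no test. Only the EPO day 6 and combined day 6 arrays shared a slide with the untreated array. For the other arrays treatment and slide cannot be told apart. A 2-fold difference was counted only where the higher array was well above background, which Rarb, Cyp26a1 and Stra6 never were. Those genes could thus enter no such count, here or below, and are not among the 14217 genes tested. In EPO Sca1-low cells 1 of the 9 genes was at least 2-fold higher and 3 were at least 2-fold lower, where 18.5% and 17.8% of the 14217 genes tested were so. In EPO Sca1-high cells 0 of the 9 genes were past 2-fold (3.65% of all genes higher and 1.86% lower). With retinoic acid, IL-3/GM-CSF Sca1-high cells had 2 higher and 2 lower (9.73% and 6.44% of all genes), and combined Sca1-high cells 2 higher and 1 lower (8.71% and 6.5%). Sca1-low cells of both treatments had 0 higher and 3 lower (7.89% and 10.6% of all genes in IL-3/GM-CSF cells, 10.2% and 11.8% in combined cells). At day 6 the counts were 2 higher and 2 lower in IL-3/GM-CSF cells (9.9% and 9.6%), 1 and 2 in combined cells (8.42% and 6.31%) and 1 and 3 in EPO cells (11.6% and 14.9%).

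Dhrs3 and Tgm2 were the genes on the higher side in Sca1-high cells with retinoic acid. Dhrs3 was 3.69-fold higher in IL-3/GM-CSF and 4.24-fold higher in combined Sca1-high cells than in untreated cells, against 1.26-fold in EPO Sca1-high cells. Tgm2 was 6.82-fold and 3.25-fold higher by its brighter probe. By the other probe the difference was at least 56.2-fold in IL-3/GM-CSF and at least 24.9-fold in combined Sca1-high cells, with the untreated value not well above background. Such a bound sets the measured value against the higher of the lowest signal counted as well above background on the dim array and the probe's own signal there. At day 6 that probe was at least 22.1-fold higher in IL-3/GM-CSF and at least 7.56-fold higher in combined cells, where the brighter probe gave 2.98-fold and 1.40-fold.

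On the lower side, Dhrs3 was 3.49-fold lower in IL-3/GM-CSF, 4.07-fold lower in combined and 9.78-fold lower in EPO Sca1-low cells than in untreated cells. At day 6 Dhrs3 was 8.02-fold lower in EPO cells and 2.36-fold and 2.66-fold higher in IL-3/GM-CSF and combined cells. Cyp26b1 was lower than in untreated cells on all 9 treated arrays, from 1.28-fold in combined Sca1-high cells to at least 19.7-fold in EPO day 6 cells. Rxra was 6.26-fold lower in combined Sca1-high and 2.76-fold lower in IL-3/GM-CSF Sca1-high cells on its brightest probe. Its other probe gave 2.26-fold and 2.84-fold, and with normexp background correction the differences were -1.30 and -0.77 log2.

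The arms with retinoic acid were then set against the EPO arm within the same population. The test was an additive limma model of treatment and population over the 9 treated arrays, with p-values adjusted by the Benjamini-Hochberg method over 14217 genes. Its 4 residual degrees of freedom hold the unevenness of a treatment's effect over the 3 populations, so a p sets the mean difference against that unevenness and not against replicate error. Of the 6 members tested 0 passed an adjusted p of 0.05, where 0.00703% of all genes passed higher and 0% lower. That share is 1 gene, Tbxas1 (thromboxane synthase), named after its value was seen, while 3915 genes had an unadjusted p under 0.05. The median difference over all genes tested was -0.12.

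In single pairs of arrays, at least 2-fold differences among the 9 genes were 2 higher and 2 lower in IL-3/GM-CSF Sca1-low cells against EPO (10.9% and 9.66% of all genes) and 2 and 2 in combined Sca1-low cells (11.4% and 10.6%). IL-3/GM-CSF Sca1-high cells had 2 higher and 2 lower (7.59% and 5.9%), and combined Sca1-high cells 2 higher and 1 lower (9.05% and 9.15%). Day 6 cells of the IL-3/GM-CSF treatment had 4 higher and 1 lower (17.1% and 16.3%), and those of the combined treatment 3 higher and 1 lower (16.7% and 13.1%). Dhrs3 was on the higher side and Rxra on the lower side of all 6 pairs.

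Rxra averaged -3.16 in the retinoic acid arms and -1.49 in the EPO arm, a difference of -1.67 (SE 0.21, limma adjusted p = 0.0679). It was lower in 6 of 6 pairs of arrays on the brightest probe, by 1.24 to 2.43 in size, and in 6 of 6 on the other, by 0.26 to 1.21. The 6 pairs share 3 EPO arrays, and the share of all genes whose 6 pairs have the same sign was not counted. The estimate lay at the 1.80 percentile of all genes tested. On the same slide the differences were -1.27 for IL-3/GM-CSF Sca1-low, -1.24 for IL-3/GM-CSF Sca1-high and -1.85 for combined day 6 cells. With slide as a block the difference was -1.56 (adjusted p = 0.0483), and without the EPO Sca1-low array -1.77 (adjusted p = 0.0495). Among genes well above background on all arrays it was -1.67 (adjusted p = 0.0254), so the call depends on these settings. Over all genes tested, 846, 248 and 144 passed in the same order, against 1 in the main fit. The other probe gave -0.71 (adjusted p = 0.119), and normexp background correction with quantile normalization gave -1.02 (adjusted p = 0.0521).

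Dhrs3 averaged 3.77 in the retinoic acid arms and 1.32 in the EPO arm, a difference of 2.45 (SE 0.56, limma adjusted p = 0.102). The difference was positive in 6 of 6 pairs, which reuse the EPO arrays, though the share of all genes with such agreement was not counted. In the Sca1-low fraction it was 2.80-fold for IL-3/GM-CSF and 2.41-fold for combined cells, in the Sca1-high fraction 2.93-fold and 3.37-fold, and at day 6 18.9-fold and 21.4-fold. Both day 6 values lay above all 4 day 3 values, and this unevenness enters the error of the test. Over the day 3 arrays alone the difference was 1.52 (adjusted p = 0.149). Within slides the differences were 1.49, 1.55 and 4.42 log2 for IL-3/GM-CSF Sca1-low, IL-3/GM-CSF Sca1-high and combined day 6 cells. With slide as a block the difference was 2.97 (adjusted p = 0.0134), a setting in which 846 of 14217 genes passed, against 1 in the main fit.

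Cyp26b1 averaged -1.82 in the retinoic acid arms and -3.42 in the EPO arm (1.60 ± 0.69 SE, limma adjusted p = 0.194). Only 1 of 3 EPO arrays measured it well above background, and with normexp background correction the difference was 0.65. It was at least 3.86-fold and 4.06-fold higher in IL-3/GM-CSF and combined Sca1-low cells than in EPO Sca1-low cells, and at least 2.17-fold and 7.94-fold higher at day 6. In the Sca1-high fraction, the only population in which all 3 treatments were measured, it was 2.06-fold lower in IL-3/GM-CSF cells and 1.06-fold higher in combined cells than in EPO cells.

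Rara and Rarg had small mean differences between the arms. Rara had a difference of 0.35 (SE 0.50, limma adjusted p = 0.662), with an interval of -0.86 to 1.57, and the other probe had -0.31. At day 6 the brightest probe was 5.15-fold higher in IL-3/GM-CSF and 2.64-fold higher in combined than in EPO cells, while the other probe was higher by 0.91 and 0.26 log2. At day 3 the brightest probe had a mean difference of -0.41. Rarg had 0.37 (SE 0.26, adjusted p = 0.374), interval -0.25 to 1.00, with day 6 differences of 2.21-fold and 1.99-fold and day 3 differences within 0.33 log2 in size.

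Tgm2 gave 0.13 on its brighter probe (SE 0.56, limma adjusted p = 0.893), a mean of opposite values. In Sca1-high cells it was 5.59-fold higher in IL-3/GM-CSF and 2.67-fold higher in combined than in EPO cells, and in Sca1-low cells 2.01-fold and 2.51-fold lower. At day 6 it was 1.12-fold higher in IL-3/GM-CSF and 1.90-fold lower in combined than in EPO cells. The other probe was not well above background on any EPO array and allows bounds only. By that probe the Sca1-high cells were at least 50.4-fold (IL-3/GM-CSF) and at least 22.3-fold (combined) above EPO cells, the day 6 cells at least 11.7-fold and at least 3.98-fold, and the Sca1-low cells of all 3 treatments were not well above background. The probes thus disagreed in direction for combined day 6 cells.

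**Figure D2:**
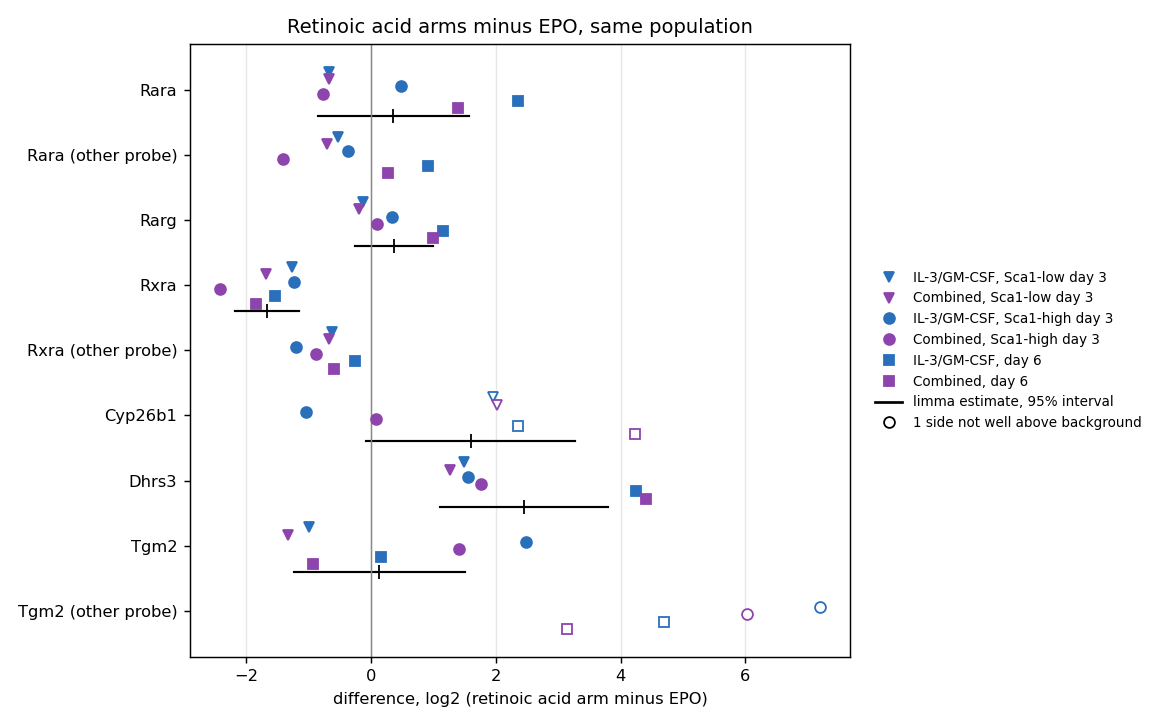
Difference of each retinoic acid array from the EPO array of the same population (x axis, log2) for the 6 detected genes and their other probes (y axis); triangles are Sca1-low, circles Sca1-high and squares day 6 cells, in blue for IL-3/GM-CSF and purple for combined treatment. Black lines give the limma estimate with its 95% interval; all Rxra points lie below 0 and all Dhrs3 points above 0, with day 6 farthest out for Dhrs3, and open symbols have the EPO array not well above background.

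Lineage markers moved with the same contrast. The 12 neutrophil markers had a median difference of 2.85 between the retinoic acid arms and the EPO arm (11 of 12 above 0), and the 8 erythroid markers with a value had -3.27 (8 of 8 below 0), with 0 of either list called. At day 6 the summed neutrophil signal, in units of the array's 75th percentile, was 2801 in IL-3/GM-CSF, 2229 in combined and 107 in EPO cells. The summed erythroid signal was 4.46, 35.5 and 1131 in the same order, with 4 of the 8 well above background in IL-3/GM-CSF cells. The part of these cell types in the differences above was not tested, and in bulk RNA fewer cells of a type and less RNA per cell cannot be told apart.

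The sorted fractions were compared over the 6 day 3 arrays, with treatment as a term and 2 residual degrees of freedom. Both fractions of a treatment shared a slide. Of the 6 members tested 3 passed, all lower in Sca1-low than in Sca1-high cells, where 6.98% of all genes passed lower and 4.09% higher. The median over all genes was 0.17. By single pairs of arrays, 0 of the 9 genes were at least 2-fold higher and 4 at least 2-fold lower in IL-3/GM-CSF Sca1-low than Sca1-high cells (9.26% and 13.9% of all genes), 1 and 5 in combined cells (11.8% and 12%), and 0 and 3 in EPO cells (12.3% and 14.7%).

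Dhrs3 fell in Sca1-low cells, with a mean of 0.94 against 4.74 in Sca1-high cells (-3.80, SE 0.22, limma adjusted p = 0.00434). The difference was 12.9-fold in IL-3/GM-CSF, 17.2-fold in combined and 12.3-fold in EPO cells. All 3 treatments, with and without retinoic acid, thus showed the direction, and whether the sizes differ was not tested. Leaving out either IL-3/GM-CSF array left -3.86 with an adjusted p of 0.0544, a setting in which 0 genes passed.

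Rarg fell to a mean of 0.55 in Sca1-low cells, against 1.68 in Sca1-high cells (-1.13, SE 0.21, limma adjusted p = 0.0406), by 2.54-fold in IL-3/GM-CSF, 2.25-fold in combined and 1.85-fold in EPO cells. Rara fell to 1.24 in Sca1-low cells, against 2.86 in Sca1-high cells (-1.62, SE 0.33, limma adjusted p = 0.0472), by 5.34-fold, 2.24-fold and 2.41-fold. The other Rara probe gave -0.25 (adjusted p = 0.542) and the mean of the probes -0.93 (adjusted p = 0.0978), so that call belongs to 1 probe. Both calls also ended without any 1 IL-3/GM-CSF or combined array and without the filter on dim probes (adjusted p = 0.0714 for Rarg and 0.0758 for Rara).

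The other 3 genes did not pass. Rxra had 1.15 (SE 0.25, limma adjusted p = 0.0579), higher in Sca1-low cells of all 3 treatments on its brightest probe, and 0.04 on the other (0.49 with normexp background correction). Among genes well above background on all arrays the adjusted p of the brightest probe was 0.0122, a setting in which 2422 of 10621 genes passed. Cyp26b1 had -2.10 (SE 0.60, adjusted p = 0.0973), with EPO Sca1-low cells not well above background. Tgm2 had -1.26 (SE 0.72, adjusted p = 0.294). Without either EPO array the difference was -2.30, which rests on the IL-3/GM-CSF and combined pairs alone. Tgm2 was 6.37-fold lower in IL-3/GM-CSF and 3.81-fold lower in combined Sca1-low than Sca1-high cells, and 1.76-fold higher in EPO cells. On the other probe it was at least 27.3-fold and at least 14.6-fold lower with retinoic acid.

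**Figure D3:**
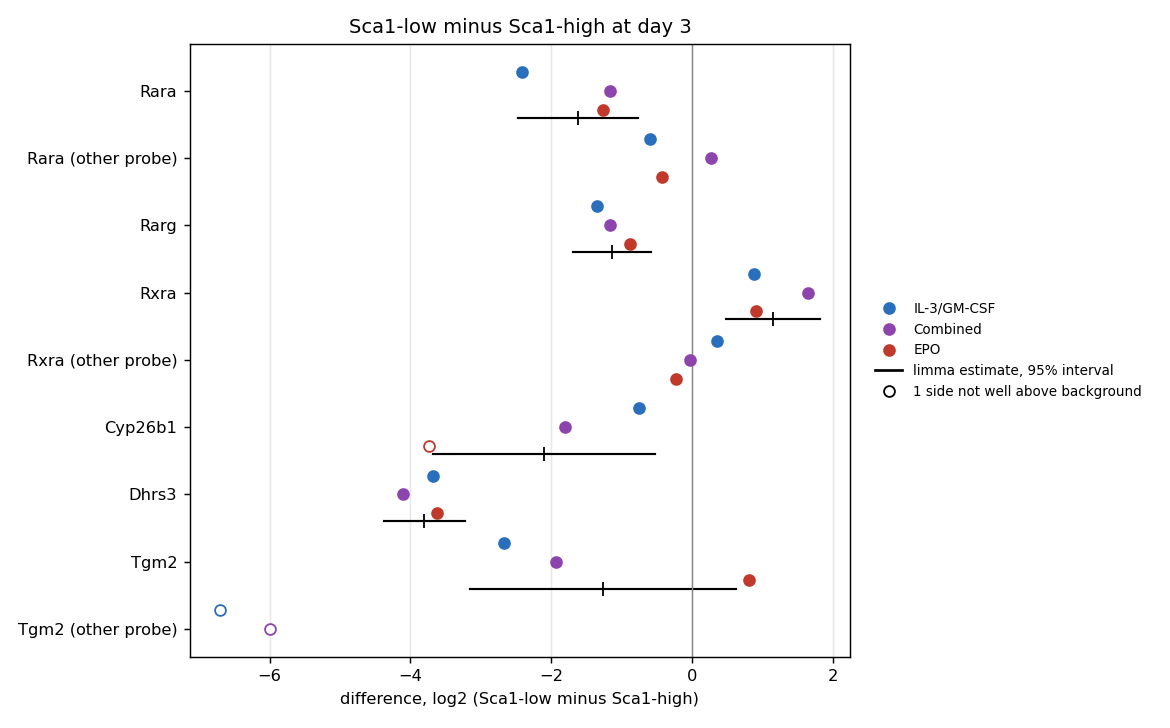
Difference between the Sca1-low and Sca1-high array of each treatment at day 3 (x axis, log2) for the detected genes and their other probes (y axis), in blue for IL-3/GM-CSF, purple for combined and red for EPO cells. Black lines give the limma estimate with its 95% interval; the 3 Dhrs3 points lie together near -3.80, while the Tgm2 point of EPO cells lies on the other side of 0 from the other two.

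All 8 erythroid markers with a value passed higher in Sca1-low cells (median 3.46), and their summed signal was 420 to 872 in Sca1-low and 40.1 to 79.9 in Sca1-high cells. The summed neutrophil markers were 108 to 272 in Sca1-low and 506 to 842 in Sca1-high cells, with 3 of 12 called lower and 4 of 12 above 0. Mpo, a granule peroxidase, had levels of 1.71 to 2.03 in Sca1-low and 7.03 to 8.40 in Sca1-high cells, and Ctsg, a granule protease, 1.34 to 2.47 and 7.16 to 8.67. Both carried most of the summed neutrophil signal in Sca1-high cells. Other neutrophil markers lacked this gap, Csf3r at 6.48 to 8.01 in Sca1-low and 6.40 to 7.45 in Sca1-high cells among them. Elane read 1.69 to 3.23 and 1.43 to 2.80. The summed mast cell markers were 10.7 to 18.3 in Sca1-low and 155 to 485 in Sca1-high cells (3 of 8 called lower). Progenitor markers had a median of -2.21 (4 of 8 called lower) and monocyte and macrophage markers -3.87 (5 of 5 tested below 0, 2 called). Their part in the values of Dhrs3, Rarg and Rara was not tested.

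EPO on top of retinoic acid and IL-3 was read as combined minus IL-3/GM-CSF cells. In every population these arrays came from different slides, so added EPO and slide cannot be told apart in the pairs below. No gene passed in limma (0% of 14217, with 261 at an unadjusted p under 0.05), so no member did. In Sca1-low cells 0 of the 9 genes were 2-fold apart (4.28% of all genes higher and 2.24% lower). In Sca1-high cells combined treatment had Cyp26b1 2.18-fold higher, and Rara 2.37-fold, Rxra 2.27-fold and Tgm2 2.10-fold lower (4.61% and 5.56%), each on the brightest probe. The other probes gave 2.06-fold lower for Rara and 2.25-fold lower for Tgm2, but 1.26-fold higher for Rxra. At day 6 Cyp26b1 was 3.66-fold higher and Tgm2 2.13-fold lower (4.51% and 2.88%). Dhrs3 was within 1.17-fold in all 3 populations, though 0.52 log2 higher in combined Sca1-high cells with normexp and 0.56 with quantile normalization.

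Day 6 against day 3 gave 0 called genes as well (0%, with 1370 at an unadjusted p under 0.05). No day 6 array shared a slide with a day 3 array of its treatment, so day and slide cannot be told apart in these pairs. Set against Sca1-high cells of the same treatment, Dhrs3 was 1.56-fold lower at day 6 in IL-3/GM-CSF, 1.59-fold lower in combined and 10.1-fold lower in EPO cells. Rarg was 1.21-fold, 1.14-fold and 2.14-fold lower in the same order. At least 2-fold differences were 0 higher and 2 lower of the 9 genes in IL-3/GM-CSF (5.71% and 8.08% of all genes), 1 and 1 in combined (6.25% and 6.18%) and 1 and 4 in EPO cells (11.5% and 16%). Tgm2 was 2.29-fold lower in IL-3/GM-CSF, 2.32-fold lower in combined and 2.19-fold higher in EPO cells on its brighter probe. Day 6 cells carry no fraction label, and the direction depends on the day 3 fraction chosen. Against Sca1-low cells Dhrs3 was higher at day 6, at 4.55 against 1.51 in IL-3/GM-CSF cells. It read 4.72 against 1.29 in combined and 0.31 against 0.02 in EPO cells. Rarg read 1.59 against 0.53, 1.44 against 0.46 and 0.45 against 0.66 in the same order.

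The wider retinoid pathway was read through 74 further genes in 8 lists by role, of which 53 were tested. Another 12 were well above background on 0 arrays, Aldh1a2, Cyp26c1, Stra8 and Hoxa5 among them, and 9 on 1 array. In the retinoic acid arms against the EPO arm 0 of 53 passed in limma (18 at an unadjusted p under 0.05), and their median was 0.04, against -0.12 over all genes tested. Between Sca1-low and Sca1-high cells 3 passed higher and 7 lower, where 4.09% and 6.98% of all genes did, with a median of -0.10 against 0.17 over all genes. When either IL-3/GM-CSF day 3 array was left out, 0 genes of all those tested passed in limma, with 3437 at an unadjusted p under 0.05.

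Among other known targets, with 11 of 20 tested, 7 of 11 lay above 0 in the retinoic acid arms (median 0.27, 42.2% of all genes above 0). Cebpe, a transcription factor of granulocyte maturation, had the widest difference at 5.90 (SE 1.55, limma adjusted p = 0.110). It read -0.44, 5.85 and 8.13 in IL-3/GM-CSF and -2.78, 4.02 and 7.58 in combined cells (Sca1-low, Sca1-high and day 6), against 1.61 in EPO Sca1-high and 1.04 in untreated cells, and was not well above background in the other EPO cells. Cebpe also stands in the neutrophil marker list. Bhlhe40, a transcriptional repressor, had 3.60 (SE 0.70), Meis1, a progenitor homeobox factor that also stands in the progenitor list and was well above background on 1 of 3 EPO arrays, 3.51 (SE 0.60), and Tnfaip2 -1.56 (SE 0.40), all short of the threshold (adjusted p = 0.0993, 0.0879 and 0.107). In Sca1-low against Sca1-high cells, 1 of the 11 passed higher and 5 lower (4.09% and 6.98% of all genes). Bhlhe40 fell by 3.67 and Icam1, an adhesion molecule, by 1.71 log2, and Tnfaip2 rose by 2.63. Cebpe, Meis1 and Asb2 passed lower too, with dim arrays on the Sca1-low side. Cebpe was 78.4-fold lower in IL-3/GM-CSF, 112-fold lower in combined and at least 74.9-fold lower in EPO Sca1-low than Sca1-high cells, and Meis1 9.11-fold, 5.32-fold and at least 7.39-fold. Asb2 was not well above background in any Sca1-low cells and was at least 23.8-fold, 11.7-fold and 2.61-fold lower in the same order.

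Binding and transport proteins had 3 of 7 tested and a median of -0.57 in the retinoic acid arms against EPO. Crabp2, which carries retinoic acid to its receptors, had 1.03 (SE 0.43, adjusted p = 0.186), and Fabp5 had -0.57. Rbp2 was well above background on 2 of 6 retinoic acid and 1 of 3 EPO arrays and is given no value. The synthesis list had 12 of 17 tested with a median of -0.12, the same as over all genes. Its widest values were -0.95 for Rdh12, -0.71 for Rdh11, -0.69 for Rdh13 and -0.68 for Aldh1a1, a retinaldehyde dehydrogenase that makes retinoic acid. Aldh1a1 rose in Sca1-low against Sca1-high cells by 1.56 (SE 0.24, limma adjusted p = 0.0252).

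Coregulators had 12 of 12 tested and 9 of 12 above 0 (median 0.38) in the retinoic acid arms against EPO. Ncoa3, a coactivator, had 1.73 (SE 0.31, limma adjusted p = 0.0944), followed by Tbl1xr1, Ncor1 and Ncoa2 at 0.84, 0.67 and 0.51. Ncoa3 was the only one of the 12 to pass between fractions, where it fell by 1.52 in Sca1-low cells (adjusted p = 0.0184). The remaining X receptors, Rxrb and Rxrg, had -0.45 and -0.18 with adjusted p-values of 0.226 and 0.798. Among 10 of 11 tested partner receptors of the X receptors the median was 0.00, with Vdr, the vitamin D receptor, at 2.64 (SE 0.71, adjusted p = 0.113), and Thra, a thyroid hormone receptor, at -0.74. Nr1h3 and Nr1h4 were well above background on 3 and 2 of 6 retinoic acid arrays and on 0 of 3 EPO arrays. Vdr fell in Sca1-low cells by 3.24 (adjusted p = 0.0109), and Thra rose by 1.18 (adjusted p = 0.0374). Storage and breakdown had 3 tested genes, Dgat1 at 1.50, Retsat at -0.51 and Cyp2s1, which was well above background only in EPO Sca1-high and untreated cells.

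**Figure D4:**
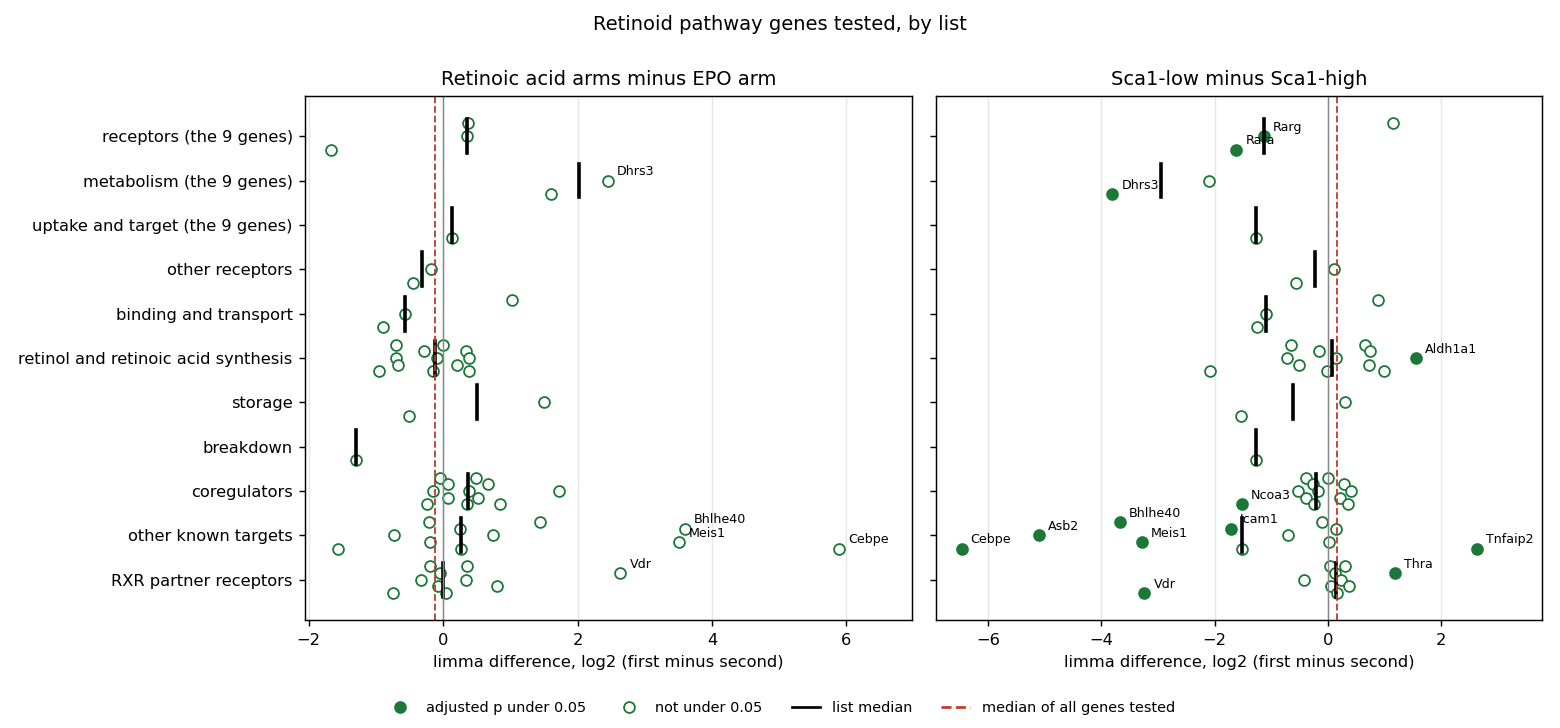
Limma differences (x axis, log2) of the tested retinoid pathway genes by list (y axis), for the retinoic acid arms minus the EPO arm on the left and Sca1-low minus Sca1-high on the right. Each circle is a gene, filled where the adjusted p was under 0.05, black bars are list medians and the dashed red line is the median of all genes tested; no circle is filled on the left, and 13 are on the right, 3 of them among the 9 genes.

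Genes with the most similar pattern were sought by Pearson's correlation over the 10 arrays, which share arrays and scaling with the gene they are set against and carry no p. Dhrs3 was most like Sh2d5 (r = 0.994), Kif5a (0.993) and the chemokine gene Ccl9 (0.993). Rarg was most like Irf8 (0.990), a transcription factor on the monocyte marker list, then Islr (0.986) and Grasp (0.984). Cyp26b1 was most like Fam189b (0.988), Lhx2 (0.980) and Trim65 (0.976), Rara like Slit3 (0.983), Edem2 (0.976) and Tspan5 (0.970), and Rxra like Pepd (0.975), Carhsp1 (0.972) and Polr2g (0.964). Tgm2 had the weakest neighbours, Clca1 (0.941), Dusp5 (0.925) and Stk19 (0.914).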

How the data were processed

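Per the labels' protocols, total RNA of sorted EML-C1 cells was labelled with Cy3 and hybridised to Agilent arrays, and per the submitters' processing notes the scans were read with Agilent Feature Extraction 11.0.1.1. The deposited files hold spot intensities, whose processed channel, per the file headers, comes from the extraction protocol GE1_1100_Jul11. Values in the deposited series matrix equalled these intensities (largest log2 gap 0), on a linear scale without centring, with column medians of 17.0 to 36.9.

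Spots marked as non-uniform or population outliers (171 to 360 per array) were left out, no spot was saturated on any array (0 spots), each array was scaled by subtracting the log2 75th percentile of its non-control spots from its log2 processed intensities, and repeated spots were averaged. RefSeq accessions gave a symbol to 27235 of 55681 probes. The brightest probe stood for a gene, and 14217 genes, those whose probe exceeded background by the scanner software's test on 2 or more arrays, were tested with limma 3.58.1 in R 4.3.3, which was also tested on simulated data. A fold against a dim array was given as a bound. The 9 genes, the pathway lists and the markers were chosen with earlier results of these data known. Named pathway genes are up to 4 per list with the widest difference between the retinoic acid arms and the EPO arm, and the 3 most similar genes per member, while genes named for a call between fractions or for lack of signal were picked after their values were seen. Normexp used the median spot and background signals in place of the mean signal, which was not used here, with an offset of 50. Samples were grouped by their labels. All arrays are single samples, so p-values set a mean difference against the unevenness of effects over conditions and not against replicate error. Alternatives were other background corrections, scalings, filters, probes, slide as a block and each array left out. A pathway gene is not reported here and was left out of its list. No protein sequences were used here.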

Additional observations from a re-analysis of the deposited data

Results flagged for a closer look

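In 5 cases both retinoic acid treatments moved a gene one way and EPO the opposite way under the same contrast of single arrays. The rule used signs only, whatever the size, on the brightest probe of the 6 detected genes. The contrasts screened were Sca1-low minus Sca1-high, and Sca1-low, Sca1-high and day 6 cells each minus untreated. The share of all genes that meet this rule was not counted, so the number of cases cannot be called high or low. None of these differences was tested, and each group's effect is 1 pair of arrays. Of the arrays set against the untreated array, only EPO day 6 and combined day 6 shared its slide.

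Dhrs3 at day 6 minus untreated was 1.24 in IL-3/GM-CSF, 1.41 in combined and -3.00 in EPO cells, so that the mean of the retinoic acid treatments was 4.33 log2 above EPO. Rarg in the same contrast was 0.33, 0.17 and -0.82, a gap of 1.07. Rxra was -1.16, -1.47 and 0.38, a gap of -1.70, and in Sca1-low cells minus untreated it was -0.58, -0.99 and 0.70, a gap of -1.48. With the mean of both Rxra probes the EPO day 6 value was -0.37, on the same side of 0 as the retinoic acid treatments. In EPO Sca1-low cells the other probe gave -0.52 and the mean of probes 0.09, so both Rxra cases rest on the brightest probe.

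Tgm2 in Sca1-low minus Sca1-high cells was -2.67 in IL-3/GM-CSF, -1.93 in combined and 0.81 in EPO cells, a gap of -3.11. Its other probe was not well above background in either EPO fraction.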

How the results depend on the processing

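No paired analysis by replicate was possible because all arrays carry the same single replicate number, and only treatment, population and slide tie them. The comparison of fractions did pair the Sca1-low and Sca1-high array of each treatment, through its treatment term. Between the retinoic acid arms and the EPO arm 1 gene was called, against 25 with normexp and quantile normalization (14 higher), 144 among genes well above background on all arrays (74 higher), 846 with slide as a block (560 higher) and 0 on the day 3 arrays alone. Leaving out 1 array gave 0 to 248, the highest without EPO Sca1-low. Between fractions 1574 were called, against 1025 without the filter on dim probes and 2422 with well above background on all arrays (1344 higher), and 0 to 2309 with 1 array left out, with 0 without either IL-3/GM-CSF array and 464 without either combined array. Day 6 against day 3 gave 0, against 656 with slide as a block and 0 to 790 with 1 array left out (790 without EPO day 6). Combined against IL-3/GM-CSF stayed at 0 in all settings run.

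Of the 9 genes, 3 were at least 2-fold from untreated in combined day 6 cells and 1 was under normexp. The Rara difference between the arms turned to -0.31 on the other probe and -0.41 on the day 3 arrays, with -0.41 to 0.87 over arrays left out. Tgm2 turned to -0.10 with slide as a block and gave -0.78 to 0.78 over arrays left out. Rxra and Dhrs3 between the arms, and Dhrs3 between fractions, kept their direction in all settings run. Over arrays left out they ranged from -1.77 to -1.55, from 1.52 to 2.99 and from -3.90 to -3.65. Rxra was -1.02 with normexp, -1.19 with the mean of probes and -0.71 on the other probe. Cyp26b1 ranged from 0.75 to 2.64 between the arms and from -2.77 to -1.28 between fractions over arrays left out. The median of all genes between fractions was 0.17, and 0.04 with normexp and 0.05 with quantile normalization. Between day 6 and day 3 it moved by -0.12 with slide as a block. Slide could not be separated from treatment between the fractions, so that setting was not run. The cause of these changes was not tested. Signal over background limits Rarb, Cyp26a1 and Stra6, which have bounds only.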

Other observations

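At day 6, further genes of retinoid handling were read as single arrays with no test. Aldh1a1, a retinaldehyde dehydrogenase that makes retinoic acid, read -3.11 in IL-3/GM-CSF, -3.16 in combined and 0.03 in EPO cells at day 6, against -3.18 in untreated cells. Crabp2, which carries retinoic acid, was highest at day 6 of both retinoic acid treatments, at 3.01 in IL-3/GM-CSF and 2.51 in combined cells, against 0.46 in EPO day 6 cells and 1.00 in untreated cells. Dgat1, an enzyme that esterifies retinol and other lipids, read 4.12 and 3.31 there, against 0.56 in EPO day 6 and 0.64 in untreated cells.

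Asb2, a ubiquitin ligase subunit gene known as a retinoic acid target in leukaemia cells, was well above background on 5 arrays. These were IL-3/GM-CSF Sca1-high (0.36) and day 6 (-2.87), combined Sca1-high (-0.93) and day 6 (-4.36), and EPO Sca1-high (-3.23).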
